A study of Nannochloropsis oceanica with 15 samples.

Results

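Among the 10434 genes of the deposited table, 3 were chosen by their identifiers as makers of membrane lipids that hold no phosphorus. They are NO15G02830 and NO01G02630, both described as the sulfoquinovosyl transferase SQD2, and NO05G01490, described as betaine lipid synthase. The choice was made with earlier results of these data known, so the tests on the 3 genes are not independent of their selection. RNA was sequenced from the marine microalga Nannochloropsis oceanica, strain IMET1, in 15 libraries. There were 3 libraries (replicates a, b and c) at each of 0, 6, 12, 24 and 48 h. The cells had grown under constant light and were spun down, rinsed in seawater and put into f/2 medium without phosphate. The treatment label of all 15 libraries, those of 0 h too, is phosphate deprivation, while the titles carry the mark "-P" from 6 h on and not at 0 h. Whether the 0 h cells were taken before or after the change of medium is not stated, and no library of phosphate-replete cells at a later time was used here. Deprivation, handling and time in culture therefore cannot be told apart. The protocol describes triplicate cultures. Which library came from which culture, and whether a letter marks the same culture over time, is not stated, so the p-values measure the spread between libraries.

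Cells keep much of their phosphate in the phospholipids of their membranes. Sulfolipid is an acidic lipid of chloroplast membranes: SQD1 builds its sugar donor, UDP-sulfoquinovose, from UDP-glucose and sulfite, and SQD2 moves the sulfoquinovose onto diacylglycerol. Betaine lipid is a neutral lipid outside the chloroplast that resembles phosphatidylcholine in shape and charge, and betaine lipid synthase builds it on diacylglycerol with S-adenosylmethionine. In plants and algae, sulfolipid is known to stand in for phosphatidylglycerol, and in algae betaine lipid for phosphatidylcholine, when phosphate runs short.

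The names rest on similarity to proteins of other species, and this similarity was uneven. NO15G02830 was matched to Arabidopsis SQD2 in Swiss-Prot and to sulfoquinovosyltransferase in KEGG, with an E-value of 1.67e-33. NO01G02630 had the same Swiss-Prot match and no KEGG entry, and its domains included the N-terminal part of asparaginase beside the glycosyl transferase domains. The table held 4 genes described as SQD2 in all. Of these, NO07G01720 had the closest KEGG match (E-value 4.22e-134), and its best match in the protein database was named sulfoquinovosyldiacylglycerol 2. NO05G01490 was named betaine lipid synthase by KEGG alone (E-value 1.85e-28), while its best database match was a methyltransferase of ubiquinone and menaquinone synthesis. Its listed domains were all methyltransferase domains, the ubiE/COQ5 family among them, so its name is uncertain. The genes are therefore called SQD2-type and betaine lipid synthase as annotated names, and no enzyme activity was measured. Sequences and chromosomal positions of these genes were not used here.

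Total counts per library lay between 16649421 and 26349336. Levels are given in CPM (counts scaled to the library total with TMM factors), and differences as log2 fold changes ± SE from an edgeR fit of all 15 libraries, with 3 libraries per time. A gene is said to have risen or fallen where its adjusted p was under 0.05 over the 9321 genes tested, which included all 3 members. The 4 comparisons with 0 h share the same 3 control libraries. Changes were common in this time course. At 6 h, 24.7% of the tested genes were higher and 25.7% lower than at 0 h. The higher and lower genes made up 32.1% and 32.7% by 12 h. They made up 25.2% and 20.8% by 24 h, then 26.3% and 23.0% by 48 h. A call on a single gene has to be read against these shares. The share of all tested genes whose later libraries did not overlap those of 0 h was not counted here. A lack of overlap alone therefore does not set the 3 members apart from other genes.

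The SQD2-type gene NO15G02830 was low at 0 h and reached its highest level at 48 h. It stood at 6.24, 6.28 and 4.96 CPM in replicates a, b and c of 0 h, from 107 to 126 counts per library. At 6 h the same replicates held 15.5, 12.0 and 3.80 CPM. Replicate c of 6 h thus lay below every library of 0 h, while the other two lay above, so the groups overlapped. At 12 h the levels were 86.8, 72.1 and 92.1 CPM, and at 24 h they were 51.3, 43.5 and 37.5 CPM. At 48 h they were 140.2, 107.2 and 141.5 CPM, so that every library from 12 h on lay above every library of 0 and 6 h.

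Against 0 h, NO15G02830 differed by a log2 fold change of 0.83 ± 0.37 at 6 h, which did not pass the test (adjusted p = 0.083). It rose by 3.84 ± 0.41 at 12 h, or 14.4-fold (adjusted p = 4.0e-06). It was higher by 2.92 ± 0.39 at 24 h (adjusted p = 8.0e-05). At 48 h it was higher by 4.47 ± 0.42, a fold change of 22.2 (adjusted p = 4.9e-06). The result at 6 h depended on replicate c and on the tool. Without that library the difference from 0 h was 1.22 ± 0.18 (adjusted p = 2.1e-04), and with all libraries DESeq2 called it (0.87 ± 0.38, adjusted p = 0.04). Over all tested genes that library was as close to the 0 h libraries as its fellows, with a mean correlation across genes of 0.87 for each of the 3. The same held for 48 h (0.872, against 0.872 and 0.869 for replicates a and b). Its correlation was lower with 12 h (0.853, against 0.859 and 0.863) and 24 h (0.883, against 0.897 and 0.891). Between 6 h replicates, chi-square per degree of freedom was 128.4 and 125.2 for c against a and b, and 79.3 for a against b. Replicate c was also the largest library, with 26349336 counts. Why it differed was not tested.

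The course of NO15G02830 was not steady. From 6 to 12 h it rose by 3.01 ± 0.39 (adjusted p = 5.8e-05), and the level at 24 h was lower than at 12 h by a log2 fold change of -0.92 ± 0.36 (adjusted p = 0.049). That dip was at the edge of the threshold, and leaving out any of 13 of the 15 libraries, or upper-quartile scaling, ended the call (adjusted p = 0.065 with that scaling). From 24 to 48 h the gene rose again, by 1.55 ± 0.37 (adjusted p = 0.01). The order of its levels was 0, 6, 24, 12 and 48 h. In that order, the difference between 0 and 6 h did not pass the test. Neither did that between 12 and 48 h (0.63 ± 0.36, adjusted p = 0.17), although their libraries did not overlap. A fit of only the 6 libraries compared gave 0.63 ± 0.15 (adjusted p = 0.017). Without replicate c of 6 h the difference between 12 and 48 h passed the test at the same size and a smaller SE (0.63 ± 0.16, adjusted p = 0.0067).

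The SQD2-type gene NO01G02630 moved earlier and came down again. It stood at 26.0, 23.5 and 28.4 CPM in replicates a, b and c of 0 h. At 6 h, the time at which NO15G02830 overlapped its start, it had reached 162.4, 174.2 and 109.6 CPM. The 12 h libraries held 254.5, 192.9 and 209.7 CPM, above all those of 6 h. The level then dropped to 83.1, 72.1 and 42.2 CPM at 24 h and 68.2, 53.9 and 63.1 CPM at 48 h. No library of a later time overlapped those of 0 h, while the libraries of 24 and 48 h overlapped each other.

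NO01G02630 rose by a log2 fold change of 2.52 ± 0.25 within 6 h, or 5.72-fold (adjusted p = 4.3e-06), and lay 3.08 ± 0.25 above 0 h at 12 h (8.43-fold). From 12 to 24 h it fell by 1.73 ± 0.24 on the log2 scale (adjusted p = 7.0e-05). It still lay above 0 h by 1.34 ± 0.24 at 24 h (adjusted p = 6.4e-04) and by 1.25 ± 0.24 at 48 h (adjusted p = 9.4e-04). The order of its levels was 0, 48, 24, 6 and 12 h. The difference between the neighbours 48 and 24 h did not pass the test (adjusted p = 0.83). Neither did that between 6 and 12 h (0.56 ± 0.23, adjusted p = 0.07), although their libraries did not overlap. The difference between 6 and 12 h passed without replicate c of 24 h (adjusted p = 0.021) and, just under the threshold, with DESeq2.

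**Figure D1:**
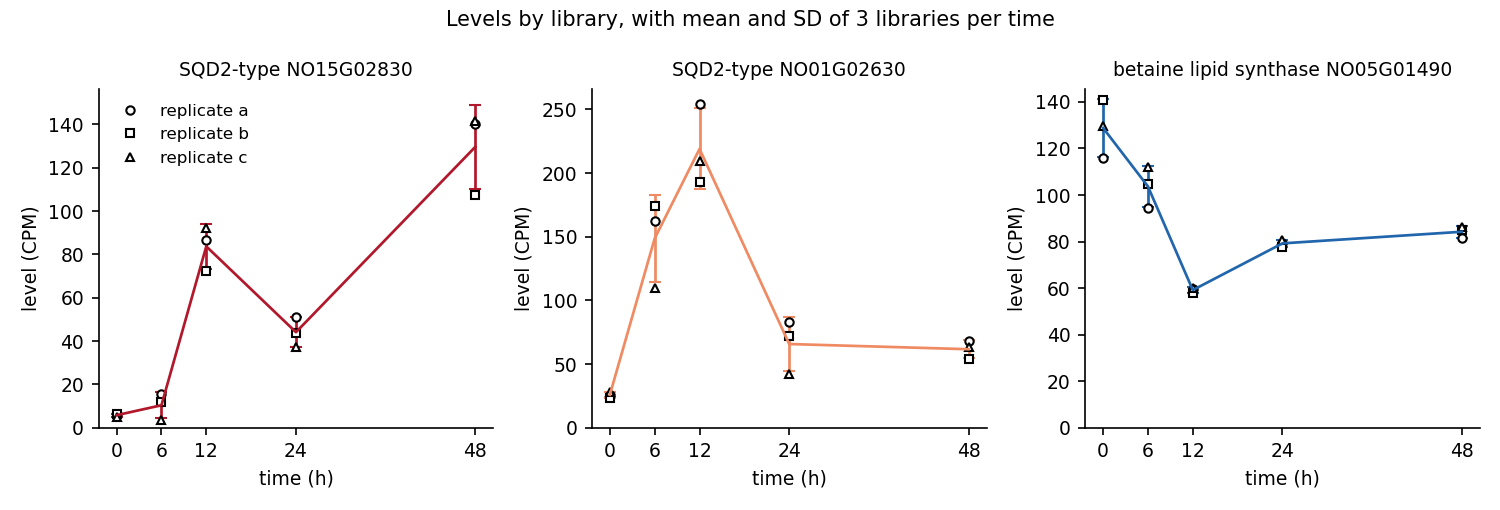
Level in CPM against time in hours for NO15G02830, NO01G02630 and NO05G01490. Open symbols are the 15 libraries by replicate letter, lines join the means of the times, and bars are the SD of 3 libraries. NO15G02830 was highest at 48 h, with 107.2 to 141.5 CPM, NO01G02630 at 12 h, with 192.9 to 254.5 CPM, and NO05G01490 was lowest at 12 h, with 57.9 to 59.9 CPM.

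The gene annotated as betaine lipid synthase, NO05G01490, went the other way. It held 115.8, 140.8 and 129.8 CPM in replicates a, b and c of 0 h. The 6 h libraries held 94.3, 104.7 and 112.1 CPM, just below them. At 12 h the levels were 59.7, 57.9 and 59.9 CPM, the lowest of the series and close together. They stood at 79.4, 77.7 and 80.6 CPM at 24 h and at 81.4, 85.0 and 86.3 CPM at 48 h, so every library of a later time lay below every library of 0 h.

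The fall of NO05G01490 was small at 6 h, largest at 12 h and partly reversed after that. Relative to 0 h it changed by a log2 fold change of -0.31 ± 0.08 at 6 h (adjusted p = 0.004), -1.12 ± 0.08 at 12 h (adjusted p = 8.1e-08), -0.70 ± 0.08 at 24 h (adjusted p = 1.5e-05) and -0.61 ± 0.08 at 48 h (adjusted p = 3.6e-05). From 12 to 24 h it rose by 0.42 ± 0.08 (adjusted p = 5.0e-04). The order of levels was 12, 24, 48, 6 and 0 h. Of the neighbours in that order, only 24 and 48 h did not pass the test (0.09 ± 0.08, adjusted p = 0.45), although their libraries did not overlap. The fall at 6 h was the least firm. It missed the threshold on log2(FPKM + 1) with limma (-0.13 ± 0.08, adjusted p = 0.21) and when only the 6 libraries compared were fitted (-0.29 ± 0.10, adjusted p = 0.06).

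The spread between libraries of a time differed among the 3 genes. The SD of log2 CPM within times, pooled over the 5 times, was 0.51 for NO15G02830, 0.31 for NO01G02630 and 0.09 for NO05G01490. Over tested genes whose log2 CPM averaged 3 or more, the median was 0.15. In the test of all 5 times together every member passed, with F = 45.0 for NO15G02830, 48.8 for NO01G02630 and 62.7 for NO05G01490 (adjusted p = 2.8e-06, 2.0e-06 and 6.5e-07). That test called 76.0% of all genes. Between later times, the shares of genes called in either direction were 46.8% for 12 against 6 h, 39.0% for 24 against 6 h and 45.0% for 48 against 6 h. They were 53.7% for 24 against 12 h, 52.8% for 48 against 12 h and 22.7% for 48 against 24 h. The members called in these 6 comparisons were, in the same order, 2, 3, 3, 3, 2 and 1 of 3.

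The courses were compared directly by the ratio of 2 genes within each library, in which library scaling cancels. The log2 ratio of NO15G02830 to NO01G02630, in CPM, was -2.14 ± 0.32 (SD, n = 3) at 0 h, -4.02 ± 0.73 at 6 h and 1.06 ± 0.09 at 48 h. Its time means spanned 5.08 log2 units (exact permutation test over all 1401400 divisions of the 15 libraries into 5 times, adjusted p = 2.1e-06 over 3 ratios, from the smallest p that the divisions can give, 7.1e-07). The ratio of NO15G02830 to NO05G01490 spanned 5.06 units (exact permutation test, adjusted p = 2.5e-05). That of NO01G02630 to NO05G01490 spanned 4.18 units (exact permutation test, adjusted p = 2.4e-05). The 3 genes thus followed 3 different courses, the pair of SQD2-type genes included.

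**Figure D2:**
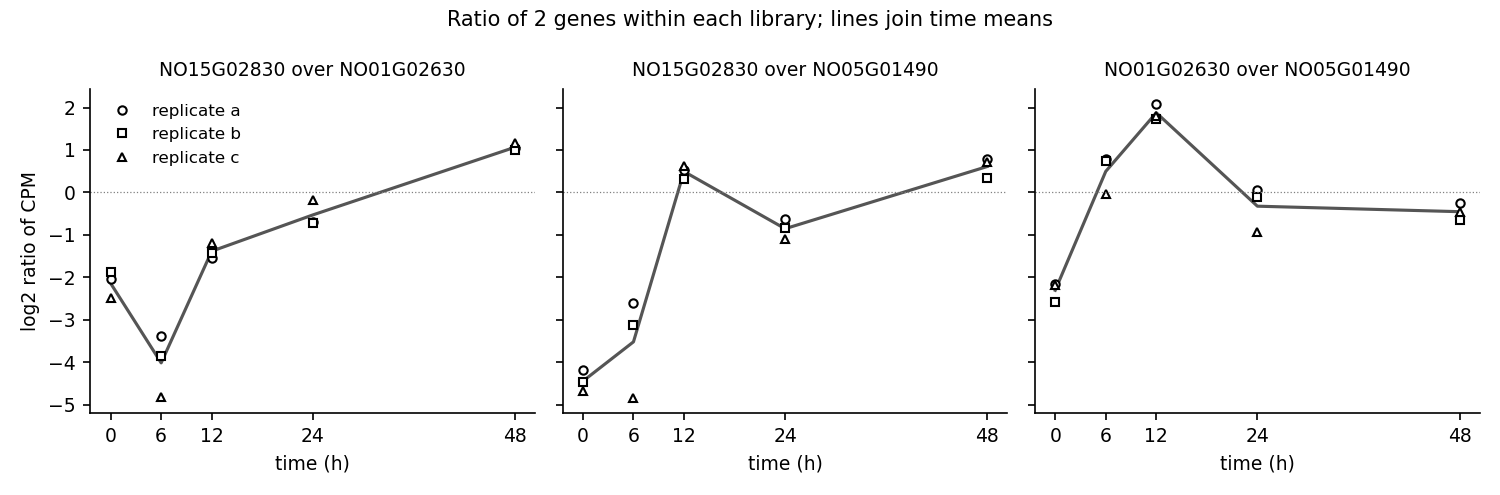
Log2 ratio of the CPM of 2 genes within each library against time in hours, with 1 panel per pair of genes. Open symbols are libraries by replicate letter and lines join the means of the times. The ratio of the SQD2-type genes was lowest at 6 h (-4.81 to -3.38) and highest at 48 h (0.99 to 1.16), with no overlap between these times.

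Levels of different genes were compared per length, in FPKM. At 0 h, betaine lipid synthase NO05G01490 stood at 89.4 ± 8.21 FPKM, above 92.3% of the tested genes. NO01G02630 stood at 4.66 ± 0.218 FPKM (above 18.7% of the genes) and NO15G02830 at 2.13 ± 0.280 FPKM (above 10.9%). At 12 h the levels per length were 40.9 ± 1.52 FPKM for NO05G01490, 38.0 ± 6.30 FPKM for NO01G02630 and 30.8 ± 3.28 FPKM for NO15G02830. At 48 h they were 61.0 ± 3.03, 11.2 ± 1.14 and 49.5 ± 6.38 FPKM in the same order, and NO15G02830 then lay above 82.4% of the genes. The lengths implied by counts and FPKM were 4.98 to 5.73 kb for NO01G02630, 2.54 to 2.74 kb for NO15G02830 and 1.34 to 1.45 kb for NO05G01490, so the level per length of NO01G02630 carries the widest uncertainty in scale.

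Neither of the other SQD2-type genes rose above its level at 0 h. NO07G01720, the gene with the closest match to sulfoquinovosyltransferase, held 216.3 to 224.0 CPM at 0 h. It was lower at 6 h (log2 fold change -0.55 ± 0.08, adjusted p = 1.2e-04) and at 24 h (-0.65 ± 0.08, adjusted p = 5.0e-05). At 12 h (-0.08 ± 0.08, adjusted p = 0.43) and 48 h (0.05 ± 0.08, adjusted p = 0.63) its libraries overlapped those of 0 h. Between later times NO07G01720 did move. It rose from 6 to 12 h (0.48 ± 0.08, adjusted p = 4.8e-04) and fell from 12 to 24 h (-0.57 ± 0.08, adjusted p = 9.1e-05). From 24 to 48 h it rose again (0.70 ± 0.08, adjusted p = 1.1e-04). These were the directions of NO15G02830 over the same steps, with smaller changes. NO05G03760 varied widely between libraries of a time, from 59.6 to 104.5 CPM at 0 h and from 31.0 to 82.4 CPM at 48 h. It passed no comparison with 0 h, and the test over the 5 times made no call on it (F = 0.968, adjusted p = 0.5).

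The members departed from NO07G01720 in their courses. The log2 ratio of NO01G02630 to it went from -3.09 ± 0.16 at 0 h to 0.06 ± 0.24 at 12 h, and that of NO15G02830 from -5.23 ± 0.16 at 0 h to -0.83 ± 0.15 at 48 h (SD, n = 3). Exact permutation tests over the 15 libraries gave an adjusted p of 1.1e-05 for NO01G02630 and 4.9e-05 for NO15G02830, over these 2 ratios, a comparison chosen after the values were seen. As shares of the summed FPKM of the 4 SQD2-type genes, NO15G02830 went from 1.57 ± 0.116% at 0 h to 26.5 ± 0.455% at 48 h. NO01G02630 went from 3.45 ± 0.389% at 0 h to 20.6 ± 2.50% at 12 h and 6.01 ± 0.253% at 48 h. NO07G01720 had the largest share at every time, 76.3 ± 3.60% at 0 h and between 52.4% and 57.9% on average later. The sum of the 4 genes was 135.8 ± 9.89 FPKM at 0 h, 184.1 ± 10.6 FPKM at 12 h, 120.3 ± 15.7 FPKM at 24 h and 187.0 ± 23.8 FPKM at 48 h, without a test.

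**Figure D3:**
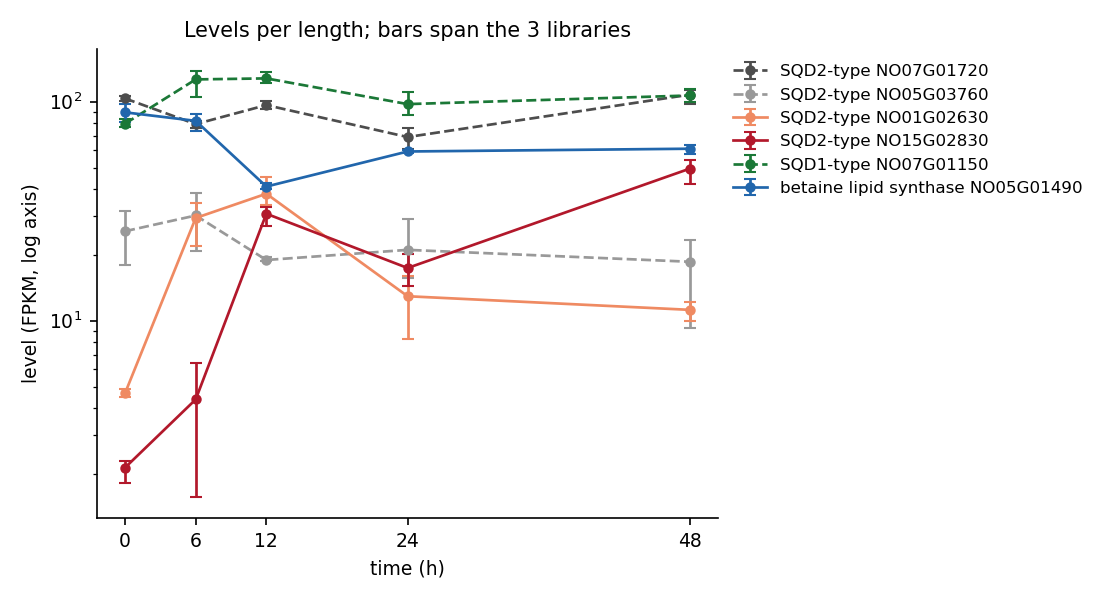
Mean FPKM, on a log axis, against time in hours for the 4 SQD2-type genes, the SQD1-type gene and betaine lipid synthase. Bars span the lowest and highest of 3 libraries, and solid lines mark the 3 members. NO15G02830 and NO01G02630 began at 2.13 and 4.66 FPKM, while NO07G01720 stayed between 68.9 and 107.7 FPKM on average.

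The step before SQD2 moved in the same direction as NO01G02630, and less. The SQD1-type gene NO07G01150, annotated as UDP-sulfoquinovose synthase, held 154.9 to 164.6 CPM at 0 h. It rose by a log2 fold change of 0.49 ± 0.11 at 6 h (adjusted p = 0.0027) and 0.69 ± 0.11 at 12 h (adjusted p = 1.5e-04), and was higher by 0.39 ± 0.11 at 48 h (adjusted p = 0.012). At 24 h its difference of 0.20 ± 0.11 did not pass (adjusted p = 0.17). Of the 6 genes of sulfolipid and betaine lipid synthesis in the table, all tested and the 3 members among them, 2 rose and 2 fell at 6 h, with a median log2 fold change of 0.31 against -0.03 for all tested genes. By 12 h, 3 rose and 1 fell (median 0.31, all genes -0.04). By 24 h, 2 rose and 2 fell (median -0.06, all genes 0.03). By 48 h, 3 rose and 1 fell (median 0.22, all genes 0.01). The risers made up 33.3%, 50.0%, 33.3% and 50.0% of the 6, against 24.7%, 32.1%, 25.2% and 26.3% of all tested genes. The fallers made up 33.3%, 16.7%, 33.3% and 16.7%, against 25.7%, 32.7%, 20.8% and 23.0%. Because the 3 members were chosen with earlier results known, these shares and medians follow in part from that choice. Among the genes that are not members, only NO07G01150 rose, at 6, 12 and 48 h. Only NO07G01720 fell among them, at 6 and 24 h.

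Galactolipids are the other lipids of chloroplast membranes that hold no phosphorus. The gene for digalactosyldiacylglycerol synthase 1 (NO07G02110), which adds the second galactose, held 354.1 to 382.8 CPM at 0 h. It fell by 0.63 ± 0.16 on the log2 scale at 6 h (adjusted p = 0.0047), a call that ended with limma on log2(FPKM + 1) (-0.44 ± 0.17, adjusted p = 0.053). It fell by 0.84 ± 0.16 at 12 h (adjusted p = 4.3e-04) and by 0.57 ± 0.16 at 48 h (adjusted p = 0.0094). At 24 h its log2 fold change was -0.38 ± 0.15 (adjusted p = 0.064), and it passed there without replicate c of 12 h (adjusted p = 0.033), without replicate c of 24 h (adjusted p = 0.035) and with DESeq2 (adjusted p = 0.046). The gene annotated as monogalactosyldiacylglycerol synthase (NO11G02470) is listed at 0 in all 15 libraries and was not tested. In all, 336 genes stood at 0 throughout. Whether NO11G02470 was silent or its reads were not assigned to it cannot be told from the counts.

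**Figure D4:**
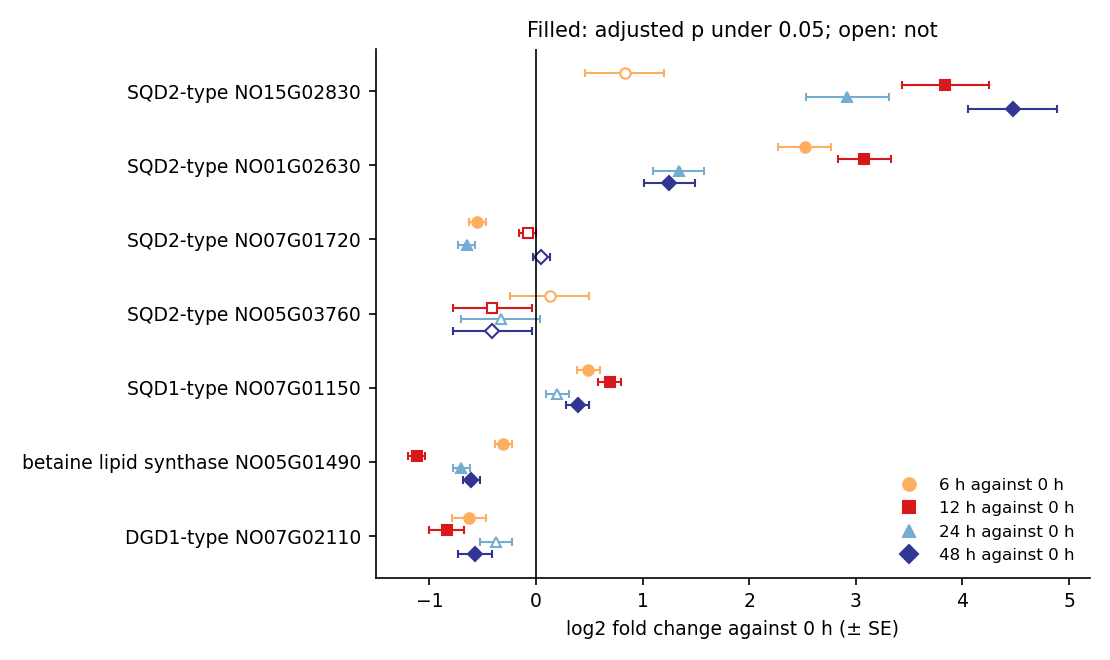
Log2 fold change against 0 h, with its SE, for the 3 members and 4 further genes of sulfolipid and galactolipid synthesis. Filled symbols passed the test and open ones did not, and SQD1-type and DGD1-type stand for NO07G01150 and NO07G02110. The rises of NO15G02830 at 12, 24 and 48 h lie between 2.92 and 4.47, and the changes of NO05G01490 between -1.12 and -0.31.

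Sugar nucleotide supply includes the making of UDP-glucose, from which SQD1 works. Of 10 tested genes matched by name, the risers numbered 1, 2, 2 and 1 and the fallers 5, 4, 4 and 4 across the times from 6 to 48 h. The medians were -0.62, -0.32, -0.28 and -0.34, against -0.03, -0.04, 0.03 and 0.01 for all genes. The fallers were thus 50% of the tested members at 6 h and 40% later, against 25.7%, 32.7%, 20.8% and 23.0% of all genes. The risers were 10%, 20%, 20% and 10%, against 24.7%, 32.1%, 25.2% and 26.3%. UDP-sugar pyrophosphorylase (NO02G03080), which makes UDP-sugars, went from 405.6 ± 8.07 CPM at 0 h to 107.8 ± 6.09 CPM at 12 h (log2 fold change -1.91 ± 0.09, adjusted p = 4.7e-09). A cytoplasmic phosphoglucomutase (NO10G00740), which makes glucose 1-phosphate, went from 594.9 ± 10.1 to 194.8 ± 24.1 CPM at 12 h (-1.61 ± 0.10, adjusted p = 4.0e-08). The largest rises in this group were those of phosphoacetylglucosamine mutase (NO12G00110), by 0.78 ± 0.07 at 24 h (adjusted p = 5.8e-06), and of UDP-N-acetylglucosamine diphosphorylase 2 (NO07G03450), by 0.53 ± 0.13 at 12 h (adjusted p = 0.003). Both act on N-acetylglucosamine and not on UDP-glucose.

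Among 4 genes around the methyl donor that betaine lipid synthase uses, 2 were higher at 6 h than at 0 h. S-adenosylmethionine synthase (NO08G00670) went from 231.1 to 237.3 CPM across the 0 h libraries to 587.4 to 888.7 CPM at 6 h (log2 fold change 1.63 ± 0.27, adjusted p = 2.6e-04). Adenosylhomocysteinase (NO24G00680), which clears the product of methyl transfer, went from 321.9 ± 9.98 to 1216 ± 172 CPM at 6 h (1.92 ± 0.09, adjusted p = 3.7e-08). A gene matched to methionine synthase, and in Swiss-Prot to the translation factor eIF4E-1 (NO11G02200), was lower at 48 h (-0.39 ± 0.06, adjusted p = 2.4e-04). Of the 4 genes, 2 rose at each time up to 24 h and 0 at 48 h. The medians were 0.78, 0.69, 0.61 and -0.32, against -0.03, -0.04, 0.03 and 0.01 for all genes. The risers were thus 50% of these few genes up to 24 h, against 24.7%, 32.1% and 25.2% of all genes. The number that fell, 1, 0, 1 and 1 at the 4 times, moved by 1 under other settings. Those were 25%, 0%, 25% and 25% of the 4, against 25.7%, 32.7%, 20.8% and 23.0% of all genes.

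Phospholipid synthesis makes the lipids that sulfolipid and betaine lipid can stand in for. Of 24 genes matched by name 19 were tested; 3 rose at each of the 4 times, while 8, 8, 5 and 6 fell, with medians of -0.20, -0.44, -0.13 and -0.17. The risers made up 15.8% of the tested members at each time, against 24.7%, 32.1%, 25.2% and 26.3% of all genes. The fallers made up 42.1%, 42.1%, 26.3% and 31.6%, against 25.7%, 32.7%, 20.8% and 23.0% of all genes. On log2(FPKM + 1), limma called 5 lower at 6 h and 3 at 48 h. The risers included choline/ethanolaminephosphotransferase 1 (NO10G01170), which completes phosphatidylcholine or phosphatidylethanolamine, with 16.5 ± 0.618 CPM at 0 h and 51.5 ± 5.23 CPM at 12 h (1.64 ± 0.12, adjusted p = 1.3e-07). Choline/ethanolaminephosphotransferase 2 (NO09G00890) rose by 0.89 ± 0.13 at 6 h (adjusted p = 1.3e-04). CDP-diacylglycerol synthase (NO07G03150), which makes the precursor of phosphatidylglycerol and phosphatidylinositol, went from 54.8 ± 1.33 to 23.9 ± 0.867 CPM at 12 h (-1.20 ± 0.07, adjusted p = 1.7e-08). A CDP-diacylglycerol pyrophosphatase (NO03G04690), which breaks that precursor down, fell by 0.91 ± 0.15 at 12 h (adjusted p = 1.6e-04).

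Phospholipid breakdown can free phosphate and diacylglycerol. Its list, matched by words, is wide and holds more than lipases and phospholipases. Examples are genes annotated as ubiquitin-fold modifier 1 (NO25G00530) and as a phospholipase A-2-activating protein (NO27G00160). Of 49 genes matched by name 44 were tested; the risers numbered 12, 17, 12 and 15 and the fallers 9, 15, 10 and 8, with medians of 0.07, 0.01, -0.11 and 0.16. The risers made up 27.3%, 38.6%, 27.3% and 34.1% of the tested members and the fallers 20.5%, 34.1%, 22.7% and 18.2%. For all genes the shares were 24.7%, 32.1%, 25.2% and 26.3% higher and 25.7%, 32.7%, 20.8% and 23.0% lower, so the group lay near the background. On log2(FPKM + 1), limma called 20 higher at 6 h. The number that fell at 24 h was 17 without replicate c of 6 h and 16 with no filter on low counts. The secretory phospholipase A2 gene (NO04G01800), named so by KEGG alone, and phospholipase D zeta 2 (NO06G04260) had the largest rises, by 4.12 ± 0.18 at 48 h (adjusted p = 3.8e-08) and 3.75 ± 0.23 at 12 h. Among those that fell, a gene with a patatin-like phospholipase domain (NO28G00050) changed by -1.10 ± 0.10 at 12 h (adjusted p = 8.1e-07). A gene with carboxylesterase and histone acetyl transferase domains (NO22G01630) changed by -1.82 ± 0.10 at 12 h (adjusted p = 1.8e-08).

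Sulfate uptake and assimilation provides the sulfite for sulfolipid. Of 23 genes matched by name 21 were tested; 7 rose at each of the 4 times, while 3, 6, 3 and 3 fell, with medians of 0.00, 0.24, 0.10 and 0.38. The risers were 33.3% of the tested members at each time, against 24.7%, 32.1%, 25.2% and 26.3% of all genes. The fallers were 14.3%, 28.6%, 14.3% and 14.3%, against 25.7%, 32.7%, 20.8% and 23.0% of all genes. The medians of all genes were -0.03, -0.04, 0.03 and 0.01. With limma on log2(FPKM + 1), 1 was called lower at 6 h. Adenylylsulfate reductase (NO12G02400), which forms sulfite, stood at 1.05 to 1.25 CPM at 0 h and 13.7 to 30.8 CPM at 24 h, a log2 fold change of 4.11 ± 0.54 (adjusted p = 6.8e-05). Sulfate transporter 3.5 (NO17G02590) lay 3.35 ± 0.17 above 0 h at 12 h, and ATP sulfurylase 2 (NO14G02380) changed by -1.86 ± 0.09 there. The other large fall was that of NO26G00710 (-1.40 ± 0.12 at 48 h, adjusted p = 3.2e-06), which is annotated as nitrite reductase and entered the group by its shared domain name.

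The genes with the most similar courses differed from member to member. Likeness was the root mean square difference, in log2 CPM, between the 5 time means of 2 genes after each gene's own mean was removed. Nearest to NO01G02630 were a microtubule end-binding protein of the EB1 family (NO07G02310, distance 0.12) and cyclin-B1-1 (NO25G01730, 0.15), which drives entry into mitosis. They were followed by vacuolar protein sorting protein 13 (NO04G03200, 0.15) and, among the 5 nearest, the centrosome protein caltractin (NO08G01550, 0.19). The median distance of all genes compared was 1.14. Cyclin-B1-1, for example, had mean levels of 13.8, 71.8, 140.8, 38.3 and 33.6 CPM at the 5 times.

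Nearest to NO15G02830 were NO04G04240 (distance 0.45), secretory phospholipase A2 NO04G01800 (0.57), NO04G04210 (0.67), NO04G04200 (0.74) and a cellobiosidase, which cuts cellulose (NO23G00130, 0.81). The median distance was 1.80. The 3 genes with NO04G04 numbers had the same best database match, a retinol or retinaldehyde reductase, although Swiss-Prot named NO04G04240 as an Aurora-3 kinase. The means of the secretory phospholipase A2 gene were 4.70, 11.4, 35.5, 21.1 and 81.9 CPM at the 5 times, highest at 48 h. NO04G04210 and NO04G04200 were also highest at 48 h. In contrast, NO04G04240 was highest at 12 h, with a mean of 122.5 CPM against 105.5 CPM at 48 h. So was NO23G00130, with 978.5 CPM at 12 h against 438.4 CPM at 48 h.

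Distances in this measure also depend on the size of a gene's changes, which was smallest for NO05G01490 among the members. The genes nearest to NO05G01490, annotated as betaine lipid synthase, all lay within 0.07, where the median distance was 0.45. They were an alpha-glucosidase (NO03G02480), the photosynthetic electron flow protein PGR5 (NO19G00390), homogentisate 1,2-dioxygenase of tyrosine breakdown (NO05G00600), an alpha-1,3-mannosyltransferase (NO05G05430) and a mitochondrial DnaJ chaperone (NO06G01350). With each library left out in turn, 4 or 5 of the 5 neighbours of NO15G02830 remained, 3 to 5 of those of NO01G02630 and 1 to 5 of those of NO05G01490. With Pearson correlation of the time means in place of the distance, 0, 2 and 2 of the 5 remained, so the neighbours named for all 3 members depend on the measure.

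**Figure D5:**
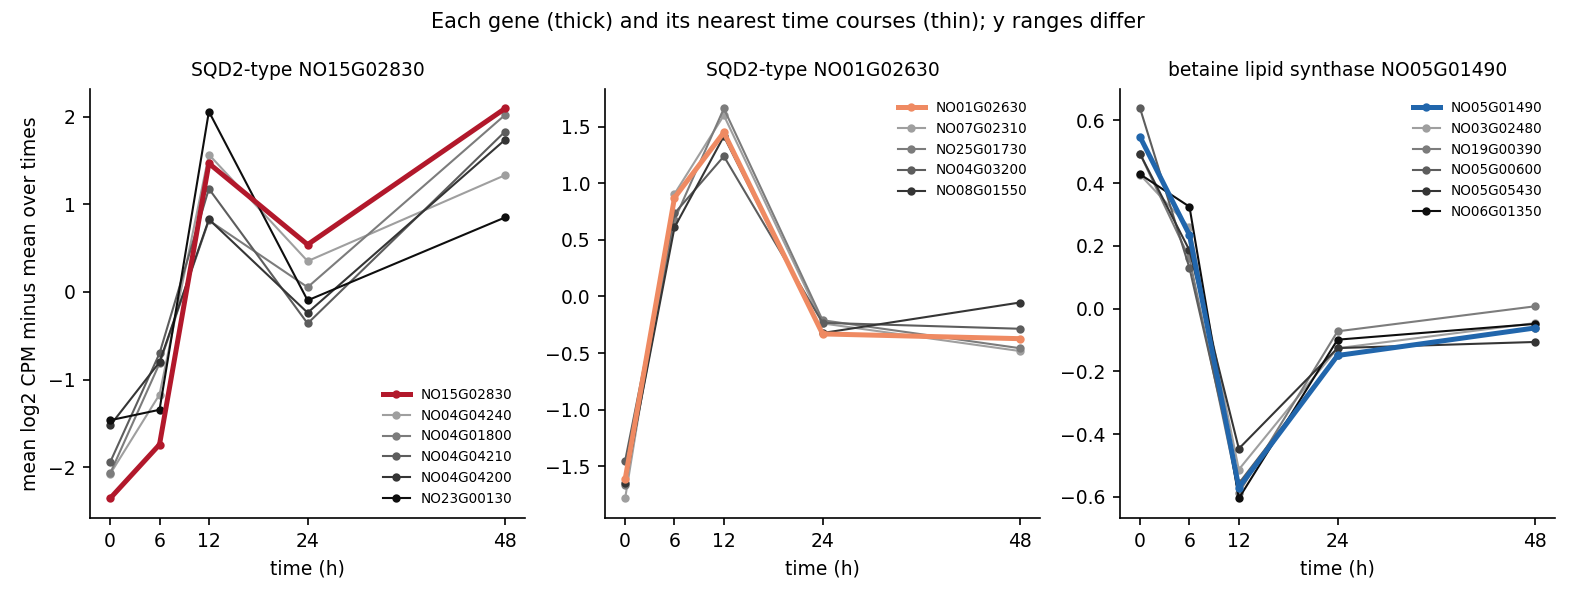
Mean log2 CPM at each time minus the mean over times, against time in hours, for each member (thick line) and its nearest genes (thin lines: 5, 4 and 5 in the panels from left to right). The y ranges differ between panels. NO01G02630 and its neighbours were highest at 12 h, NO15G02830 was highest at 48 h, and NO05G01490 and its neighbours were lowest at 12 h.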

How the data were processed

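Each gene and library has 1 count and 1 FPKM value, per the file headers. Reads were aligned with HISAT2, per the submitters' processing notes. Which version, counter, build and annotation were used is not given in the sources used here. Values in the count columns are, as deposited by the authors, estimated counts made whole by rounding up, read so from the values: they are whole, but for 366 values of 2 to 5 the count recomputed from FPKM lay in the unit below in 91.3% and was whole within 0.05 in 13.9%. FPKM values were calculated by the authors per length and depth. The reference table held 160 genes, of which 0 matched an ID.

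Counts were tested with edgeR 4.0.16 in R 4.3.3 (filterByExpr, TMM, quasi-likelihood F-test, 5 group means, 10 pairs of times, Benjamini-Hochberg over 9321 genes at 0.05, two-sided). Each SE is the size of the log2 fold change over the square root of its F. Ratios and courses used log2 CPM (prior count 2), the ratios with an exact permutation test of F. No 2 libraries of a time were copies (chi-square per degree of freedom 55.9 to 128.4). A count of 0 allows up to 3 counts, counting error only. The members and the 7 lists, matched to description words, were chosen with earlier results of these data known. Named genes were the members, all tested genes of sulfolipid, betaine lipid and galactolipid synthesis, the 2 largest rises and falls of each other list, and the 5 nearest courses among 3605 described genes, 1 of which is not reported here. The fit was tested on simulated data, with 100 genes changed at each log2 size of 1 and 2 per later time. It recovered 56% to 73% of the changes of 1 and 84% to 90% of those of 2. Of its calls, 3.05% to 5.41% were false. Far fewer genes changed in the simulation than were called in the data, so it did not test the fit under such wide change. Alternatives were other scalings, filters, DESeq2 1.42.0, limma 3.58.1 on log2(FPKM + 1), a block by letter, only the 6 libraries compared, a 2-fold threshold and each library left out.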

Additional observations from a re-analysis of the deposited data

How the results depend on the processing

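No result for the 3 genes changed direction past the threshold under any alternative run, and the tests over the 5 times and the 3 ratios passed under all of theirs. Against a 2-fold threshold, calls ended for NO15G02830 at 24 against 6 h (2.09), 24 against 12 h (-0.92) and 48 against 24 h (1.55), and for NO01G02630 at 24 against 0 h (1.34), 48 against 0 h (1.25), 24 against 6 h (-1.18) and 48 against 6 h (-1.27). For NO05G01490 they ended at 6, 12, 24 and 48 against 0 h (-0.31, -1.12, -0.70 and -0.61), at 12, 24 and 48 against 6 h (-0.81, -0.39 and -0.30) and at 24 and 48 against 12 h (0.42 and 0.51), since that threshold asks for a larger change. NO05G01490 at 6 against 0 h also lost its call on log2(FPKM + 1) (-0.13) and with only the 6 libraries compared (-0.29). NO15G02830 at 24 against 12 h lost it with upper-quartile factors (-0.84). DESeq2 called NO15G02830 at 6 against 0 h (0.87) and NO01G02630 at 12 against 6 h (0.55), and the fit of 6 libraries called NO15G02830 at 48 against 12 h (0.63). The cause was not tested. With each library left out, NO15G02830 ranged from 0.43 to 1.22 at 6 against 0 h, from -1.05 to -0.82 at 24 against 12 h and from 0.53 to 0.75 at 48 against 12 h, and NO01G02630 from 0.38 to 0.69 at 12 against 6 h.

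Same-letter libraries did not deviate together (correlations of -0.088 to 0.0768, 0 of 30 above 0.1, 3 of 15 libraries closest to their own letter). The replicate block changed no call of the 3 genes: with it, NO15G02830 at 48 against 0 h was 4.49, NO01G02630 at 12 against 0 h 3.06 and NO05G01490 at 12 against 0 h -1.12. On log2(FPKM + 1), fewer genes fell at 6 h in sulfolipid and betaine lipid synthesis (1), galactolipid synthesis (0), phospholipid synthesis (5, and 3 at 48 h) and sulfate assimilation (1), and 2 sugar nucleotide genes rose. Upper-quartile factors moved the median of all genes at 12 against 0 h from -0.04 to -0.104. Lengths come from the table's FPKM alone, which limits levels per length.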
